A study of Mus musculus with 19 samples.

Results

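The genes described here are those of the cytosolic ribosomal proteins in sorted sensory neurons of dorsal root ganglia (DRGs). They were selected by name from the deposited gene table: protein-coding genes whose symbols start with Rpl or Rps and a digit, together with Rplp0, Rplp1, Rplp2 and Rpsa, and without the kinases named Rps6k. This gave 81 of the 12629 genes in the value table, 34 named for the small ribosomal subunit (Rps and Rpsa) and 47 for the large subunit (Rpl and Rplp). The rule used names only and no measured value. It also takes in a few genes that are not core ribosomal proteins, such as Rps19bp1, whose product binds RPS19, and the retrogene-like entries Rpl10-ps3, Rps18-ps3 and Rps26-ps1, which the table lists as protein coding. By the same rule, 92 genes are annotated in GENCODE M21, and 13 of those are not in the table, among them Rps2, Rps25, Rpl5, Rpl7a, Rpl12, Rpl17, Rpl3l and Rpl39l. These 13 were not analysed here.

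The cytosolic ribosome is built from a small subunit, which reads the mRNA, and a large subunit, which forms peptide bonds. Ribosomal protein mRNAs are short and abundant, and in mammals most of them start with a cytosine followed by a run of pyrimidines, the 5′ terminal oligopyrimidine (TOP) motif, through which mTORC1 and LARP1 control their translation. In sensory neurons, ribosomes and ribosomal protein mRNAs are also found in axons, and local protein synthesis there is part of the response to axon injury. Ribosomal protein genes have many processed pseudogenes, which are intronless copies of their mRNAs scattered over the genome.

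Libraries were made from DRG neurons that had been sorted for GFP by FACS. GFP-naive neurons (n = 5) received AAV5-fGFP, driven by the CMV promoter, without injury. The α9k1-naive neurons (n = 6) received AAV5-α9-V5, driven by the CAG promoter, and AAV5-kindlin1-GFP, driven by the CMV promoter, also without injury, and all neurons were collected 8 weeks after injection. The α9 integrin binds tenascin-C, and kindlin-1 activates integrins. GFP-crush (n = 4) and α9k1-crush (n = 4) neurons received the same vectors with a concurrent crush of the dorsal roots. The injected left cervical DRGs were thus transduced in all 4 groups, and no group was without a vector. The sort was on GFP, which in α9k1 neurons came from the kindlin-1 vector. The methods of the study name adult male Lewis rats, whereas the sample labels name C57BL/6 mice, wild-type or with a9k1 overexpression. Nothing in the labels says which libraries came from separate animals, and p-values measure the spread between these libraries.

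Fermt1, which encodes kindlin-1, separated the labelled groups in all 19 libraries. It was at most 0.80 in GFP libraries, 5.18 to 6.00 in α9k1-naive and 6.42 to 7.73 in α9k1-crush on the deposited log2 scale. Itga9, the gene of the α9 integrin, was 0.90 to 2.40 in GFP libraries, 2.38 to 5.16 in α9k1-naive and 5.53 to 7.51 in α9k1-crush. Both genes were thus higher in every α9k1-crush library than in any α9k1-naive library. The part of this difference in comparisons between the α9k1 groups was not tested. The value of 2.38, in α9k1-naive replicate 2, lay within the GFP range, so that α9 was not shown to be raised in that library. The neuronal markers Uchl1 and Tubb3 had group means of 11.23 to 12.28 and 9.83 to 10.49. The glial marker Apoe was also high, with group means of 14.28 to 16.46. Over the full lists, group means were 7.98 to 8.82 for 14 neuronal markers and 8.82 to 9.63 for 12 glial markers. In no group was the glial mean below the neuronal mean. Depth was 36.4 to 87.6 M read pairs a library. The share of reads aligned to the mouse genome was 47.5% to 54.1%, and 3.87% to 4.05% of aligned bases differed from it. The species of the reads was not tested, and all levels given here are of reads placed on mouse sequences.

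To show what the genes have in common in sequence, promoter windows from RefSeq on GRCm38.p6 were read for the 59 of 81 members with an entry. The 9 windows printed here belong to 7 genes that the results turn on and to the paralogs Rps27 and Rps27l. Each runs from 15 bases before the annotated start of transcription to 15 bases from it, 5′ to 3′ on the gene's strand, with the longest run of 5 or more pyrimidines in capitals.
Rps6 (chr4:86857353-86857382, minus strand): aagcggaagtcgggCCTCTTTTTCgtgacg
Rps28 (chr17:33824548-33824577, minus strand): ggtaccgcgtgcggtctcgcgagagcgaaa
Rps16 (chr7:28350674-28350703, plus strand): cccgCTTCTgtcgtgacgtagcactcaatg
Rpl39 (chrX:37085208-37085237, minus strand): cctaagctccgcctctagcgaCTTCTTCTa
Rpl11 (chr4:136053379-136053408, minus strand): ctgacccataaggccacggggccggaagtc
Rpl37 (chr15:5116598-5116627, plus strand): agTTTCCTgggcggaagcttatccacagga
Rpl41 (chr10:128549154-128549183, minus strand): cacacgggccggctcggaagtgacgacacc
Rps27 (chr3:90213634-90213663, minus strand): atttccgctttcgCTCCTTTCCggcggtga
Rps27l (chr9:66946071-66946100, plus strand): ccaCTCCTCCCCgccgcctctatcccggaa

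The runs of Rps6 and Rps27 lay across the annotated start, that of Rpl39 lay after it, and those of Rps16, Rpl37 and Rps27l lay before it. The windows of Rps28, Rpl11 and Rpl41 held no run of 5 or more. A run of at least 8 pyrimidines was present in this 30-base window of 24 of 59 members (40.7%) and in 11.9% of 27018 promoters of all genes. In the full window of 300 bases, the letters CCGGAAG, searched on both strands, were present in 22 of 59 members (37.3%) and in 9.12% of all promoters. AAGATGG was present in 8 of 59 members (13.6%) and in 6.48% of all promoters, and TATAAA in 5 of 59 (8.47%) and in 14.2%. Windows are of the mouse reference, and an annotated start can lie some bases away from the start that a cell uses.

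Ribosomal protein genes were measured over a wide range of levels. The deposited log2 values are corrected for gene length by the authors, and the mean over all 19 libraries was among the highest for Rps21 (8.07) and Rpl10 (7.74), both structural proteins of the ribosome. It was lowest for Rpl10-ps3 (1.95), Rpl37 (2.16) and Rpl9 (2.46). The median level of the 81 genes was 5.01, and that of all genes was 4.37. Of the 31-base words in their exons, the members shared a median of 27.1% with other annotated genes, against 2.20% for all genes, and reads that match several copies cannot be placed in a single way. For 10 members, fewer than 10% of words were shared, among them Rps3, Rps15a, Rps19, Rps24, Rpl8, Rpl22, Rpl35a, Rpl39 and Rps19bp1. Across the 81 members, the level had a rank correlation of -0.16 with the share of words shared, which is a description across genes that come from the same libraries. The part of shared words in the levels was not tested.

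The mean level of the 81 genes was lower in α9k1 neurons than in GFP neurons. Its values in GFP-naive replicates 1 to 5 were 5.27, 5.22, 5.49, 5.27 and 5.51. In α9k1-naive replicates 1 to 6, they were 4.58, 4.78, 4.81, 4.81, 4.85 and 5.24. Replicate 6 was thus the only α9k1-naive library within the range of GFP-naive. The GFP-crush libraries had means of 5.31, 5.19, 5.53 and 5.35 and overlapped with GFP-naive. The α9k1-crush libraries had means of 4.55, 4.62, 4.15 and 4.47, below all GFP libraries. Expressed as mean ± SD over libraries, GFP-naive was at 5.35 ± 0.14 (n = 5), α9k1-naive at 4.85 ± 0.21 (n = 6), GFP-crush at 5.35 ± 0.14 (n = 4) and α9k1-crush at 4.45 ± 0.21 (n = 4). Members of the small subunit had means of 5.48, 4.97, 5.51 and 4.55 in the same order, and those of the large subunit 5.26, 4.76, 5.23 and 4.38. Both subunits were lowest in α9k1-crush, followed by α9k1-naive. As these are bulk samples, fewer cells of a type and less RNA per cell cannot be told apart.

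**Figure D1:**
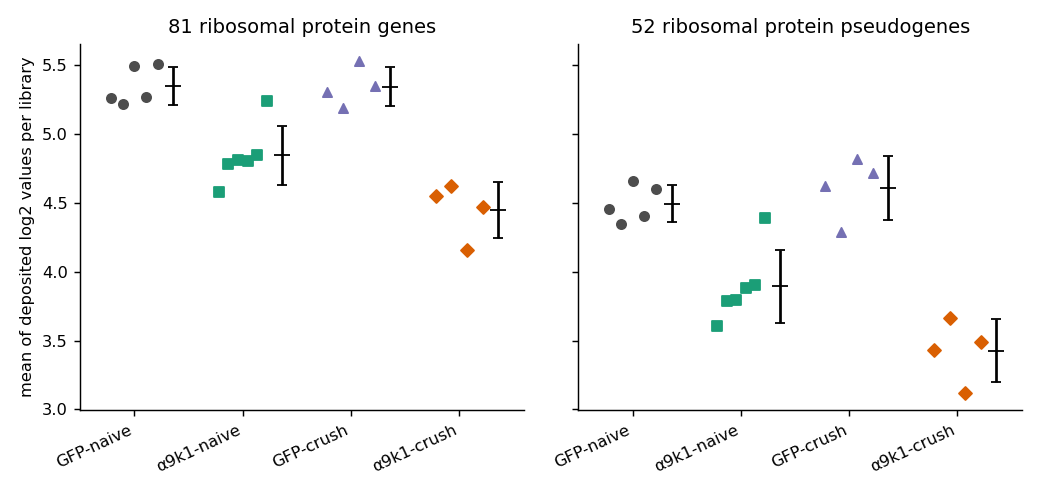
Mean deposited log2 value of 81 ribosomal protein genes (left) and of 52 ribosomal protein pseudogenes (right), with a point for each library and a bar for the mean ± SD of each group (n = 5, 6, 4 and 4). The 4 α9k1-crush libraries lie between 4.15 and 4.62 on the left, below all 9 GFP libraries, and the α9k1-naive library at 5.24 lies among the GFP libraries.

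Several properties of the libraries moved with this mean level. Intronic bases made up 2.04% to 2.93% of aligned bases in GFP libraries, 1.54% to 1.68% in α9k1-naive replicates 1 to 5 and 1.35% to 1.62% in α9k1-crush. In α9k1-naive replicate 6, which had the highest level of its group, they made up 2.26%. Bases of ribosomal RNA were 0.072% to 0.153% in GFP libraries, 0.022% to 0.036% in α9k1-naive replicates 1 to 5, 0.090% in replicate 6 and 0.017% to 0.029% in α9k1-crush. Intergenic bases were 4.17% to 5.98% in GFP libraries and 3.18% to 3.74% in α9k1 libraries other than replicate 6, which had 4.76%. The α9k1-naive library that stood among the GFP libraries in ribosomal protein genes thus also stood among them in these 3 metrics. Pseudogenes moved in the same way, with a mean over 52 ribosomal protein pseudogenes of 4.49 ± 0.13 in GFP-naive, 3.89 ± 0.27 in α9k1-naive, 4.61 ± 0.23 in GFP-crush and 3.43 ± 0.23 in α9k1-crush (SD, same n). The batch of each library is not given in the labels, and its part was not tested. The part of these properties in the lower level was not tested beyond the fits with and without covariates described next.

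**Figure D2:**
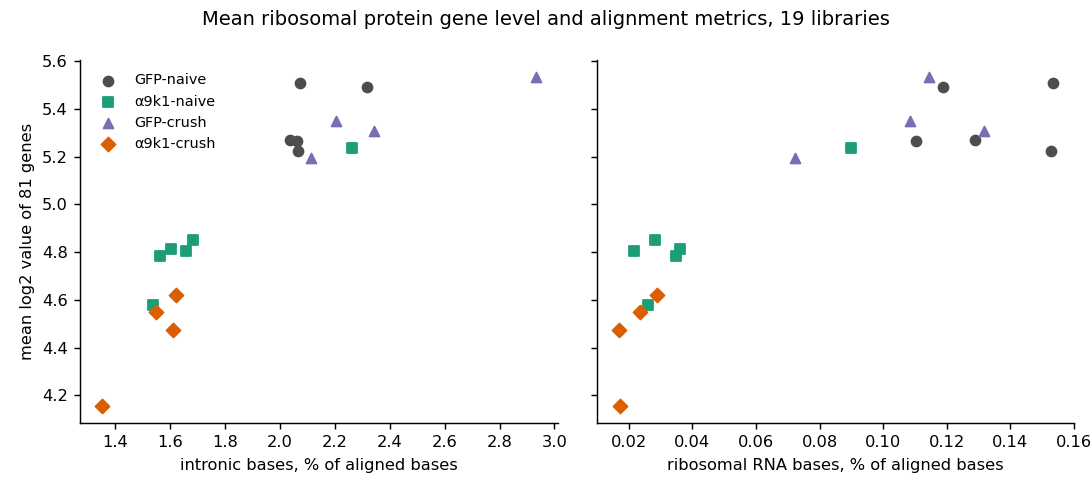
Mean deposited log2 value of 81 ribosomal protein genes in each of 19 libraries against the percentage of aligned bases that were intronic (left) or from ribosomal RNA (right). Libraries with up to 1.68% intronic bases have means of at most 4.85, and libraries with 2.04% or more have means of at least 5.19, including α9k1-naive replicate 6 at 5.24.

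Gene differences were estimated in a limma fit of all 12629 genes with the first 3 principal components of 48 library metrics as covariates, with a threshold of 0.1 for the adjusted p (Benjamini-Hochberg over all genes). The model of the study also had a term for batch, which could not be fitted here. These components differed between groups, which accounted for 34.5%, 52.2% and 74.5% of their variance. The α9k1-naive and GFP-naive neurons were compared first, which sets the α9k1 vectors against the GFP vector without injury. Integrin activation itself was not measured. Of 81 members, 16 were lower (19.8%) and 1 was higher, whereas 17.6% of all genes were lower and 11.4% higher. The share of members that were lower was thus near that of all genes. Their median log2 difference was -0.18, with 66 of 81 below 0, and that of all genes was -0.08. In the fit without covariates, 68 of 81 were lower (84.0%), against 29.5% of all genes, with a median of -0.50, which is a 1.42-fold lower level, and 72 of 81 were lower after α9k1-naive replicate 6 was also left out, against 30% of all genes. With the covariates, 9 members were lower without that replicate (12.5% of all genes) and 10 without GFP-naive replicate 4 (13.5% of all genes). Most members thus passed only in the fit without covariates. Groups did not overlap, with α9k1-naive lower, for 24 of 81 members (29.6%) and for 13.2% of all genes.

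Among genes of the small subunit, Rps28 had the largest difference that passed the test. RPS28 is a protein of the 40S subunit. The values of Rps28 in GFP-naive were 3.87, 4.74, 3.86, 4.04 and 4.55. In α9k1-naive, they were 2.74, 3.08, 3.31, 2.26, 3.0 and 3.29, all below the lowest GFP-naive library. Rps28 was lower by a log2 difference of -1.06 (SE 0.22, adjusted p = 0.00303), and by -1.27 without covariates. Rps6 encodes the substrate of the S6 kinases downstream of mTORC1. Its values were 3.67, 4.21, 4.66, 3.82 and 4.14 in GFP-naive and 3.04, 2.95, 3.20, 3.36, 3.28 and 3.62 in α9k1-naive. The groups did not overlap, and the difference of Rps6 was -0.44 (SE 0.17, adjusted p = 0.0752). Rps13 (-0.43) and Rps26 (-0.34) were also lower. In all, 6 of 34 members of the small subunit passed, a share near the 17.6% of all genes that were lower. Rps3a1 (-0.61, adjusted p = 0.137) had a larger difference than Rps6, Rps13 and Rps26 and did not pass. Rps18-ps3 had the largest positive difference of all (2.28) and did not pass (adjusted p = 0.159), as its values ranged from 0.03 to 4.39 within GFP-naive and from 0.04 to 4.51 within α9k1-naive.

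In the large subunit, 10 of 47 members were lower and Rpl7 was higher, against 17.6% of all genes lower and 11.4% higher. Rpl6 had values of 3.30, 3.12, 3.48, 3.44 and 3.64 in GFP-naive and of 2.42, 2.53, 2.93, 2.19, 2.51 and 2.35 in α9k1-naive, with no overlap and a difference of -0.89 (SE 0.25, adjusted p = 0.0206). Rpl9 was lower by -0.70 (SE 0.18, adjusted p = 0.0106). Rpl37 had values of 2.61, 2.49, 3.17, 2.74 and 2.91 against 1.30, 1.51, 1.68, 1.55, 1.88 and 2.28, and a difference of -0.66 (SE 0.16, adjusted p = 0.00947). Rpl11, which with Rpl5 and the 5S rRNA forms a particle that can bind MDM2, had values of 5.51, 5.29, 5.51, 5.54 and 6.01 in GFP-naive and of 4.81, 4.93, 4.98, 5.01, 5.0 and 5.15 in α9k1-naive. These groups did not overlap either, and the difference of Rpl11 was -0.46 (SE 0.14, adjusted p = 0.0315). The other members that were lower were Rpl29 (-0.45), Rpl39 (-0.40), Rpl13 (-0.35), Rpl32 (-0.35), Rpl10 (-0.31) and Rpl14 (-0.30). Rpl6, Rpl9 and Rpl37 have low levels in this table, with means of 2.89, 2.46 and 2.16 over all libraries. The highest differences after those of Rps18-ps3 and Rpl7 were Rpl36a (0.29), Rps18 (0.20) and Rps14 (0.15), and none passed. Of 19 fits that each left out 1 library, calls in this comparison were lost in 7 for Rpl14, 6 for Rps6 and Rpl10, 5 for Rpl29, 2 for Rpl32, 1 for Rpl6, Rpl11, Rpl13, Rpl39 and Rps26, and 0 for Rps28, Rps13, Rpl9, Rpl37 and Rpl7. Without covariates, Rpl36a, Rps18 and Rps14 had the opposite sign (-0.19, -0.15 and -0.23).

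Rpl7 went in the other direction. RPL7 is a protein of the large subunit. Its values were 5.93, 5.62, 6.01, 5.69 and 5.67 in GFP-naive and 6.48, 6.51, 6.31, 6.40, 6.47 and 6.52 in α9k1-naive. All α9k1-naive libraries lay above all GFP-naive libraries, with a difference of 0.73 (SE 0.12, adjusted p = 0.000544) and of 0.66 without covariates. When each value was taken relative to the mean of the 81 members in the same library, Rpl7 was at 0.43 ± 0.19 in GFP-naive and at 1.60 ± 0.21 in α9k1-naive, and at 0.16 ± 0.15 in GFP-crush and 1.45 ± 0.26 in α9k1-crush (SD). Of its 31-base words, 25.8% were shared with other annotated genes. Rpl7l1, the paralog of Rpl7, which acts in ribosome assembly, did not follow it, with 3.87 ± 0.19 in GFP-naive and 3.42 ± 0.15 in α9k1-naive and a difference of -0.18 (adjusted p = 0.351).

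**Figure D3:**
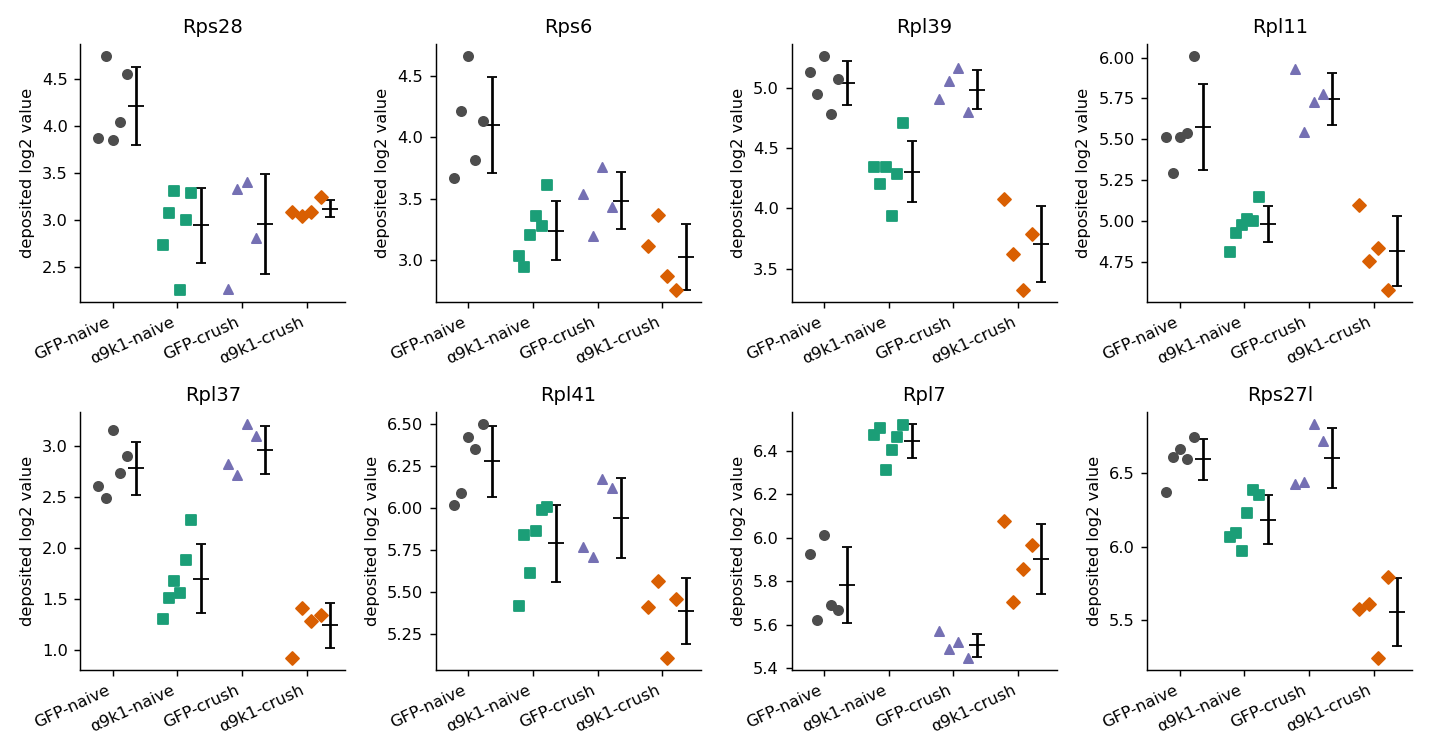
Deposited log2 values of 8 ribosomal protein genes in each library (points), with the mean ± SD of each group (bars; n = 5, 6, 4 and 4). Rps28 is highest in GFP-naive, Rpl39, Rpl11 and Rpl37 are lower in α9k1 libraries, and Rpl7 is above all GFP-naive libraries in every α9k1-naive library.

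Crush in α9k1 neurons was compared with crush in GFP neurons, which sets the α9k1 vectors against the GFP vector in injured neurons. Of 81 members, only Rpl39 was lower (1.23%) and none was higher, at backgrounds of 0.182% and 0.728% of all genes, and 12 members had an unadjusted p under 0.05, as had 9.11% of all genes. The median difference was -0.26 for members and 0.01 for all genes, with 63 of 81 below 0. Without covariates, 75 of 81 members were lower (92.6%), against 28.3% of all genes, and the median was -0.91, a 1.87-fold lower level. Groups did not overlap, with α9k1-crush lower, for 67 of 81 members (82.7%) and for 20.8% of all genes. Of the 4 comparisons between groups, this had the largest gap between the medians of the fits. In the fit with the covariates, the interquartile range of the members' differences ran from -0.50 to -0.02, and without them from -1.09 to -0.65.

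Rpl39, a small protein at the exit of the peptide tunnel of the large subunit, had values of 4.91, 5.06, 5.17 and 4.80 in GFP-crush and of 4.08, 3.62, 3.32 and 3.79 in α9k1-crush. The groups did not overlap, and the difference was -1.15 (SE 0.27, adjusted p = 0.0817) with the covariates and -1.29 without them. With the covariates, the call was lost in 12 of 19 fits that each left out 1 library. It also shares few 31-base words with other genes (9.85%). Rpl37 had the largest difference without covariates among members that passed in that fit, apart from the retrogene Rps27rt. Its values were 2.82, 2.72, 3.22 and 3.11 in GFP-crush and 0.92, 1.41, 1.29 and 1.34 in α9k1-crush, a difference of -1.73 (adjusted p = 3.1e-06 without covariates). Rps27rt had a difference of -2.20 without covariates (adjusted p = 8.48e-06). For Rplp1, an acidic stalk protein that recruits elongation factors, it was -1.52 (adjusted p = 9.21e-06 without covariates), and with the covariates it was -0.55 (adjusted p = 0.522). The 5 members that did not pass without covariates were Rps28 (0.16), Rpl21 (-0.22), Rpl10l (-0.04), Rpl10-ps3 (-0.82) and Rps18-ps3 (-2.19). Rpl7 was the member that was higher without covariates (0.40, adjusted p = 0.00392), with 5.45 to 5.57 in GFP-crush and 5.70 to 6.08 in α9k1-crush, and its difference with the covariates was 0.54 (adjusted p = 0.577). Of the members that did not pass with the covariates, the lowest differences were those of Rps23 (-1.08, adjusted p = 0.222), Rpl29 (-0.91), Rps26-ps1 (-0.79) and Rpl6 (-0.78), and the highest were Rpl10-ps3 (1.17), Rpl10l (0.73), Rps6 (0.72), Rpl36a (0.54) and Rpl7. Without covariates, all of these but Rpl7 were below 0, with -0.59 for Rpl36a. Rps6, with the covariates, had a difference of 0.72 that did not pass (adjusted p = 0.595), and without them of -0.45 (adjusted p = 0.0632).

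**Figure D4:**
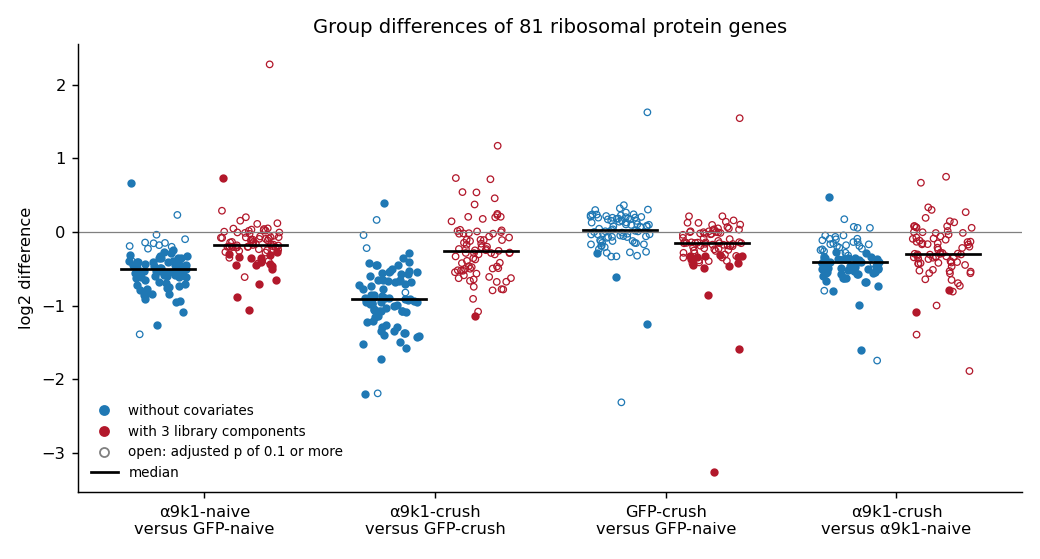
Log2 differences of 81 ribosomal protein genes in 4 comparisons (points), from the fit without covariates (blue) and with 3 principal components of library metrics (red), where filled points have an adjusted p under 0.1 and black bars are medians. In α9k1-crush versus GFP-crush, the median moves from -0.91 to -0.26 and the lower calls from 75 to 1.

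GFP-crush was compared with GFP-naive to show the effect of injury without the α9k1 vectors. Of 81 members, 14 were lower (17.3%) and none was higher, against 15.7% and 7.39% of all genes. After median-centring of libraries, 3 members were lower and 1 was higher, against 9.34% and 14.5% of all genes. The share of all called genes that were higher went from 32.0% to 60.7%. The count of lower members was 6 without GFP-crush replicate 1 or α9k1-crush replicate 3, 7 without GFP-crush replicate 2 or GFP-naive replicate 3, 8 without GFP-crush replicate 4. It was 9 when GFP-naive replicate 2 or 5, α9k1-naive replicate 4 or α9k1-crush replicate 4 was left out. Over the 19 fits that each left out 1 library, 8.37% to 17% of all genes were lower. The median was -0.15 for members and -0.08 for all genes. Without covariates, 3 members were lower (3.70%), against 20.1% of all genes, and the median was 0.03. The groups did not overlap, with GFP-crush lower, for 2 of 81 members (2.47%), Rps28 and Rpl7, and for 12.2% of all genes. The direction of the members as a set thus turned with the covariates, and the 14 calls are near the share of all genes.

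Among the 14, Rps28, Rps6 and Rpl7 also passed without covariates. Rps28 had values of 2.27, 3.34, 3.41 and 2.81 in GFP-crush, all below the lowest GFP-naive value of 3.86, and a difference of -1.59 (SE 0.22, adjusted p = 0.000414). Rps6 had values of 3.54, 3.20, 3.76 and 3.43, of which the highest lay within the GFP-naive range, and a difference of -0.86 (SE 0.17, adjusted p = 0.00507). Rpl7 had values of 5.57, 5.49, 5.52 and 5.45, all below GFP-naive, and a difference of -0.33 (SE 0.12, adjusted p = 0.0786). Rpl41, the smallest ribosomal protein, was lower by -0.49 (SE 0.13, adjusted p = 0.0223), with 5.77, 5.71, 6.18 and 6.12 in GFP-crush and 6.02, 6.09, 6.42, 6.35 and 6.50 in GFP-naive, which overlap. Rps16 (-0.31), Rps10 (-0.34), Rps15 (-0.45), Rps4x (-0.32), Rps14 (-0.33), Rps18 (-0.41), Rpl9 (-0.46), Rpl35a (-0.36) and Rpl39 (-0.34) were lower with the covariates, and none of these 9 passed without them. Of 19 fits that each left out 1 library, Rpl9 and Rpl10-ps3 lost their calls in 15, Rpl35a in 14, Rps18 in 10, Rps4x in 9, Rpl7 in 8, Rpl39 and Rps14 in 7, Rps15 in 4 and Rps10 in 1, whereas Rps28, Rps6, Rpl41 and Rps16 lost theirs in 0. Rpl10-ps3 was lower by -3.26 (SE 1.28, adjusted p = 0.0973), with 0.21, 0.30 and 0.27 in 3 GFP-crush libraries and 4.08 in the other, against 2.38 to 4.56 in GFP-naive. Of its 31-base words, 96.6% were shared with other annotated genes. Rps13 (0.21), Rpl11 (0.21), Rpl29 (0.16) and Rps23 (0.14) had the highest differences after that of Rps18-ps3 (1.55), and none of the 5 passed.

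In α9k1-crush versus α9k1-naive, 2 of 81 members, Rpl39 and Rps15a, were lower (2.47%) and none was higher, at backgrounds of 5.27% and 4.47% of all genes, and 16 members had an unadjusted p under 0.05, a share near the 21.5% of all genes. The α9k1-naive group, like GFP-naive above, serves as control in more than a single comparison, so that the comparisons are not independent. Levels of Fermt1 and Itga9 also differed between these groups, as given above. The median was -0.29 for members and 0.00 for all genes. Without covariates, 49 members were lower (60.5%), against 27.1% of all genes, with a median of -0.40. Groups did not overlap, with α9k1-crush lower, for 19 members (23.5%) and for 16.1% of all genes. Rpl39 had values of 4.35, 4.20, 4.35, 3.93, 4.29 and 4.71 in α9k1-naive and of 3.32 to 4.08 in α9k1-crush, a difference of -1.08 (SE 0.22, adjusted p = 0.0113). Rps15a, a protein of the small subunit, had values of 3.18, 3.43, 3.50, 3.27, 3.45 and 3.90 in α9k1-naive and of 2.66, 3.04, 2.61 and 3.22 in α9k1-crush. These groups overlapped, as those of Rpl39 did, and Rps15a had a difference of -0.78 (SE 0.24, adjusted p = 0.0762). Of 19 fits that each left out 1 library, Rps15a lost its call in 10 and Rpl39 in 0. The count of 2 lower members went to 5 without GFP-naive replicate 1 or α9k1-crush replicate 2, and to 3 without GFP-naive replicate 2 or 4. It went to 1 when GFP-naive replicate 3 or 5, α9k1-naive replicate 2, 3 or 4, GFP-crush replicate 2 or 4, or α9k1-crush replicate 3 was left out, and 2.97% to 7.66% of all genes were lower over the 19 fits. Rpl10-ps3 (-1.89), Rps18-ps3 (-1.39), Rps28 (-1.0) and Rps27rt (-0.81) were among the 5 smallest differences and did not pass. Without covariates, the difference of Rps28 was 0.17, of the opposite sign. Among the highest were Rpl10l (0.75), Rps13 (0.67), Rps6 (0.30) and Rps20 (0.27), and none passed, although Rps13 was higher without covariates (0.48, adjusted p = 0.00104) and its groups did not overlap. The differences of Rps6 and Rps20 were -0.21 and -0.43 without covariates, so that their sign turned with the covariates.

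The effect of α9k1 after crush was compared with that without crush as an interaction. Levels of Fermt1 and Itga9 also differed between the α9k1 groups, as given above. With the covariates, 0 of 81 members passed in limma in either direction, at backgrounds of 1.35% higher and 0.847% lower, and 5 had an unadjusted p under 0.05, against 14% of all genes. The median was -0.09 for members and 0.07 for all genes. Without covariates, 34 of 81 were lower (42.0%), against 16.1% of all genes, and Rps28 was higher (1.43, adjusted p = 0.00554). Rps6 had the smallest adjusted p of all members with the covariates, with 1.16 (SE 0.35, adjusted p = 0.137). The lowest values were those of Rps18-ps3 (-2.94), Rps23 (-0.87), Rpl39 (-0.74), Rps15a (-0.63) and Rps26-ps1 (-0.56), and the highest Rpl10-ps3 (1.37), Rps6, Rpl10l (0.72), Rps20 (0.66) and Rps28 (0.59), and none passed. Without covariates, the interactions of Rpl10l and Rps20 were -0.01 and -0.28.

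Members with known roles outside the core of the ribosome were considered next. The acidic stalk proteins Rplp0, Rplp1 and Rplp2 had differences of -0.20, -0.26 and -0.20 between α9k1-naive and GFP-naive, and none of the 3 passed with the covariates in any comparison. Rplp0, which is often used as a reference gene, had values of 5.17, 5.16, 5.35, 5.25 and 5.31 in GFP-naive and of 4.91, 4.73, 4.80, 4.66, 4.70 and 5.23 in α9k1-naive, where only replicate 6 lay within the GFP-naive range. Its values were 5.40, 5.39, 5.58 and 5.35 in GFP-crush and 4.82, 4.71, 4.73 and 4.83 in α9k1-crush, which do not overlap. Rpsa, which doubles as a laminin receptor at the cell surface, was at 3.45 ± 0.16 in GFP-naive, 2.96 ± 0.35 in α9k1-naive, 3.52 ± 0.16 in GFP-crush and 2.67 ± 0.06 in α9k1-crush (SD), and did not pass with the covariates (adjusted p = 0.436 and 0.673 for α9k1 without and after crush). Rps3, which also acts in DNA repair, Rps19, which is mutated in Diamond-Blackfan anaemia, and Rps27a, which is made as a fusion with ubiquitin, did not pass in any comparison with the covariates. Rps3 had means of 7.25, 6.93, 7.43 and 6.51 in the order of naive (GFP, α9k1) and crush (GFP, α9k1), Rps19 had 3.94, 3.49, 3.61 and 3.04, and Rps27a had 7.42, 6.93, 7.61 and 6.84. Rps14, whose loss underlies the anaemia of 5q- syndrome, had 5.46, 5.23, 5.34 and 4.61 and passed in GFP-crush versus GFP-naive alone. In no comparison did Rpl4, Rpl10a, Rpl13a, which takes part in the interferon-gamma response, or Rpl38, which is needed for translation of Hox mRNAs, pass with the covariates. Rpl4 had means of 7.19, 6.99, 7.20 and 6.70, Rpl10a had 6.55, 6.37, 6.58 and 5.81, and Rpl13a had 4.81, 4.53, 4.54 and 4.18. Rpl38 was at 5.23 ± 0.19, 4.51 ± 0.34, 5.23 ± 0.28 and 4.09 ± 0.14 in the 4 groups, in the order used above. Rpl10 and Rps4x are X-linked. Rpl10 was lower in α9k1-naive versus GFP-naive, with 7.35 to 7.90 against 7.85 to 8.20 (-0.31, adjusted p = 0.0692), and Rps4x was lower in GFP-crush versus GFP-naive with the covariates, as given above. Rps19bp1 was at 6.20 ± 0.10, 5.84 ± 0.20, 6.35 ± 0.18 and 5.62 ± 0.14 in the same order and did not pass with the covariates.

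Paralogous pairs share a role in the ribosome but come from different genes. Rpl22 had means of 5.10, 4.56, 4.95 and 4.06 in the order of naive (GFP, α9k1) and crush (GFP, α9k1), and Rpl22l1, which can replace it, had 3.14, 2.45, 3.11 and 2.41. Rps27, with 7.80, 7.22, 7.63 and 6.42, and Rps27l, a p53 target, with 6.60, 6.18, 6.61 and 5.55, were both lowest in α9k1-crush. The differences of Rps27 and Rps27l between α9k1-crush and GFP-crush were -1.21 and -1.05 without covariates (adjusted p = 5.17e-05 and 9.96e-06) and -0.50 and -0.28 with them (adjusted p = 0.75 and 0.798). Rpl36a and Rpl36al had means of 4.58, 4.39, 4.65 and 4.06, and of 6.76, 6.15, 6.96 and 5.61. Rpl3, whose paralog Rpl3l was not analysed, had 4.84, 4.48, 4.89 and 4.35. The testis-enriched Rpl10l was near 2.8 in all 4 groups (2.75, 2.71, 2.83 and 2.78). None of these 8 genes passed with the covariates in any comparison. Levels between paralogs are on the length-corrected log2 scale and depend on how shared reads were split.

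The members also differed with their length. The median exon length of the 81 genes was 1719 bases, against 3768 for all genes, and their median GC content was 51.8% against 50.1%. Without covariates, the median difference over all genes in the crush comparison of α9k1 with GFP rose with exon length, from -0.57 for 1747 genes under 1000 bases through -0.36 for 1000 to 2000 bases, -0.01 for 2000 to 4000 bases and 0.24 for 4000 to 8000 bases to 0.32 above 8000 bases. The medians of members in the first 3 of these classes (n = 15, 33 and 27) were -1.34, -0.96 and -0.66, lower than those of all genes of like length, and 6 members of 4000 to 8000 bases had -0.99. In α9k1-naive versus GFP-naive, all genes under 1000 bases had a median of -0.26 and members of that length -0.71. When the trend with exon length and GC content was removed from each library, without covariates, 67 of 81 members were lower in α9k1-crush versus GFP-crush with a median of -0.61, against 26.1% of all genes. In α9k1-naive versus GFP-naive, 60 of 81 were lower with a median of -0.39, against 23% of all genes. With the covariates, the same removal left 0 and 12 members lower, against 0.198% and 14.3% of all genes, so that these counts are near the shares of all genes. The 10 members with few shared words had a median of -0.90 in α9k1-crush versus GFP-crush without covariates and of -0.40 with them. All 10 were lower without covariates, 1 was lower with them, and 0 were lower with them once the trend was removed, against 28.3%, 0.182% and 0.198% of all genes.

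**Figure D5:**
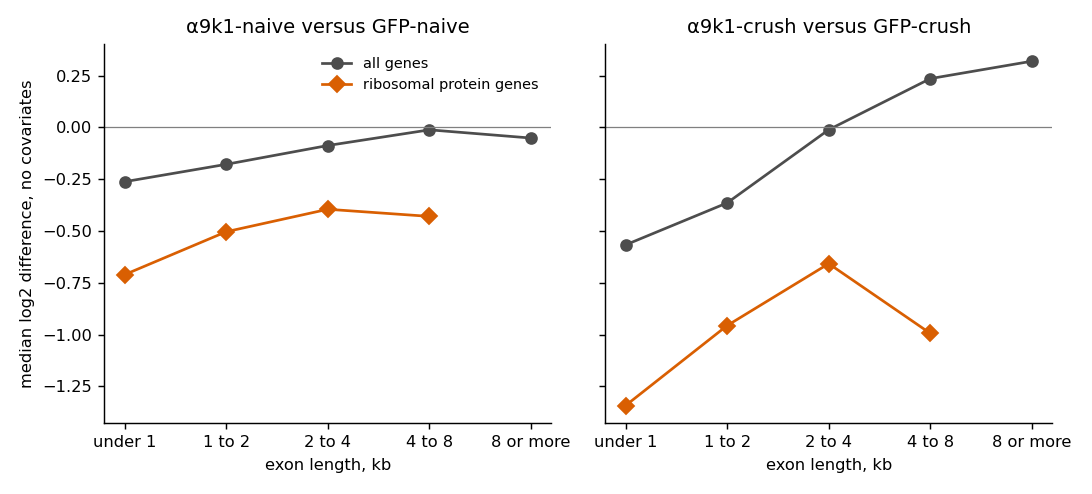
Median log2 difference without covariates by exon length (kb) for all genes (grey) and for ribosomal protein genes (orange), in α9k1-naive versus GFP-naive (left) and α9k1-crush versus GFP-crush (right). The grey line on the right runs from -0.57 in the shortest class to 0.32 in the longest, and the orange points lie below it, with 15, 33, 27 and 6 genes and no gene above 8 kb.

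The pseudogenes named after ribosomal proteins gave a further set of values. With the covariates, 4 of 52 were lower in α9k1-naive versus GFP-naive (Rpl19-ps1, Rps13-ps1, Rps13-ps6 and Rpl36a-ps2), against 17.6% of all genes, and none was higher. In α9k1-crush versus GFP-crush, 0 of 52 passed in limma, and 8 had an unadjusted p under 0.05, against 9.11% of all genes. Without covariates, 48 of 52 were lower (92.3%), against 28.3% of all genes, with a median of -1.19. Processed pseudogenes are near copies of the parent mRNA, and reads of a copy and its parent cannot always be told apart. The pseudogenes are those of the mouse reference. Whether the animals, named as rats in the study's methods, carry them was not tested.

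Other genes of the translation machinery were taken from fixed lists, whose counts are to be read against the shares of all genes that passed with the covariates. These were 11.4% higher and 17.6% lower in α9k1-naive versus GFP-naive, 7.39% and 15.7% in GFP-crush versus GFP-naive, and 4.47% and 5.27% in α9k1-crush versus α9k1-naive. None of the lists was tested against them. Of 3 listed components of the ribosome outside the rule, 2 were lower in the first of these comparisons, and 1 was higher in the second. Fau, which encodes a ribosomal protein fused to a ubiquitin-like protein, was lower in α9k1-naive versus GFP-naive (-0.27, adjusted p = 0.0734). Of 19 other mRNAs with a TOP motif, 3 were lower in α9k1-naive (Eif4b, Eif3k and Btf3) and none was higher, with a median of -0.11. In α9k1-crush versus GFP-crush, 0 of 19 passed in limma with the covariates, with 2 at an unadjusted p under 0.05 (9.11% of all genes), and 11 were lower without them, against 28.3% of all genes, with a median of -0.43. The median of the other TOP mRNAs was thus closer to 0 than that of the ribosomal protein genes (-0.91) in the same fit, and the difference between the 2 lists was not tested. In GFP-crush versus GFP-naive, Gas5 (-0.85), Eef1a1 (-0.59) and Pabpc1 (-0.45) were lower and Eif3e (0.37) was higher. Eef1a1, which carries aminoacyl-tRNA to the ribosome, was also lower in α9k1-crush versus α9k1-naive (-0.85, adjusted p = 0.0605).

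Of 41 initiation factors, 5 were higher and 10 were lower in α9k1-naive versus GFP-naive, near the shares of all genes. Eif1a (0.79, adjusted p = 0.000347) and Eif6 (0.69, adjusted p = 5.36e-05), which keeps the subunits apart, were the highest, and Eif1b (-0.83, adjusted p = 0.000157) and Eif3j2 (-0.72, adjusted p = 0.000819) the lowest. In GFP-crush versus GFP-naive, 6 were higher, led by Eif2s1 (0.45), and 2 were lower, Eif3d (-0.37) and Eif4g2 (-0.30). In α9k1-crush versus α9k1-naive, Eif2s1 and Eif2b1 were higher (0.69 each). Of 14 elongation and release factors, Pelo (0.93), which rescues stalled ribosomes, and Gspt1 (0.36) were higher in α9k1-naive and Eef1a2 (-0.74), the neuronal form of the factor, was lower. Of 55 genes of ribosome biogenesis, 1 was higher (Nop14, 0.94) and 11 were lower in α9k1-naive, with Emg1 (-0.72) and Ddx10 (-0.61) the lowest, and the share that was lower was near that of all genes (17.6%). In GFP-crush versus GFP-naive, 3 were higher and 2 were lower, and in α9k1-crush versus α9k1-naive, 2 were higher, Noc2l (0.81) and Bysl (0.76).

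Of 27 genes of RNA polymerases I and III, which make ribosomal RNA and the 5S RNA, 6 were lower in α9k1-naive versus GFP-naive, with Brf2 (-0.96) and Znrd1 (-0.67) the lowest, and 3 were lower in GFP-crush versus GFP-naive, among them Taf1a (-0.77). The 6 of 27 are to be set beside 17.6% of all genes, as are the 7 of 27 that follow. Among 27 components and regulators of mTORC1, Sesn1 was higher (0.50) and 7 were lower in α9k1-naive, with Rps6ka1 (-0.84) and Eif4ebp2 (-0.61) the lowest. Larp1, whose product binds the TOP motif, was 1 of the 7 (-0.51, adjusted p = 0.036). Deptor (-0.86) and Ddit4 (-0.79), both inhibitors of mTORC1, were lower in GFP-crush versus GFP-naive. After crush, with α9k1 against GFP, none of the genes in these 5 lists passed in limma with the covariates, and 7 of 41 initiation factors, 1 of 14 elongation and release factors, 2 of 55 biogenesis genes, 0 of 27 polymerase genes and 3 of 27 mTORC1 genes had an unadjusted p under 0.05, against 9.11% of all genes.

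Markers of other cells moved with the groups in the sorted samples. Counts of called markers are to be read against 11.4% of all genes higher and 17.6% lower in α9k1-naive versus GFP-naive. The mean of 10 macrophage markers was 4.25 to 4.78 in GFP-naive, 5.38 to 6.09 in α9k1-naive, 5.72 to 6.41 in GFP-crush and 5.74 to 6.62 in α9k1-crush, and 7 of 10 were higher in α9k1-naive than in GFP-naive, whereas Adgre1, Csf1r and Ptprc were not called. The mean of 12 markers of satellite glia and Schwann cells was 9.50 to 9.78 in GFP-naive, 8.72 to 9.07 in α9k1-naive, 9.26 to 9.58 in GFP-crush and 8.44 to 9.10 in α9k1-crush, in the order of the ribosomal protein genes. In α9k1-naive, 5 of the 12 were lower, among them Sox10 (-1.45), and 3 were higher, among them Apoe (0.89). In α9k1-naive replicate 6, the mean of the glial markers was 8.88, within the range of its group. For 6 markers of endothelial cells and fibroblasts, the mean was 6.57 to 6.96 in GFP-naive, 3.77 to 5.55 in α9k1-naive, 5.56 to 5.98 in GFP-crush and 4.68 to 5.70 in α9k1-crush, and all 6 were lower in α9k1-naive, including Dcn (-3.10) and Col3a1 (-2.01). The mean of 14 neuronal markers was 8.26 to 8.58, 7.90 to 8.10, 8.64 to 8.91 and 8.48 to 9.04 in the same order. The lowest group mean of a marker in these 4 lists was 1.78 (Adgre1), so that none was at 0. The part of other cells in the level of ribosomal protein genes was not tested.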

How the data were processed

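RNA of GFP-positive sorted neurons was amplified with SMART-Seq v4 and sequenced in 19 libraries with reads of 75 bases. According to the study's methods and the submitters' processing notes, the authors aligned reads with STAR to mm10, took library metrics from Picard and gene counts from Salmon, removed low genes, and normalised log2 counts with a small pseudocount for gene length and depth with cqn. The deposited log2 values were used as they are. Of the deposited library metrics, some are counts of reads or bases, some a fraction of reads or bases, some a percent (dropout) and some a ratio to the mean coverage, per the file headers. The deposited fold changes and p-values of the authors' own comparisons were not used. The value table carries no gene names, and its rows were taken in the order of the authors' gene table, as row means had a rank correlation of 0.999 with the authors' mean levels and of at most 0.0895 when the order was shifted. No column of values was left unmapped.

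Group means and the first 3 principal components of 48 scaled metrics were fitted to all 12629 genes in all 19 libraries with limma 3.58.1 in R 4.3.3 (residual df 12), with Benjamini-Hochberg adjustment over all genes and a threshold of 0.1. Tests were two-sided and were tested on simulated data. Python 3.11.15, pandas 2.3.3, numpy 2.4.6 and matplotlib 3.10.9 were used for summaries and plots. Shared words were counted from exons of GENCODE M21 annotation. Named genes were a set of members with known roles, paralogs, the 3 highest and 3 lowest levels, the 5 highest and 5 lowest differences per comparison, and members called. Other genes were chosen after their values were seen. Results of some of these genes are not reported here. The members and lists were chosen with earlier results of these data known. Alternatives were fits without covariates or with 1 component, other scalings and filters, array weights, a replicate block and leaving out each library. Depth per gene is unknown from log2 values, and no counting interval is given.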

Additional observations from a re-analysis of the deposited data

Results flagged for a closer look

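In 68 groups of values of named genes, 2 had a library far from the others of its group, and chance gives about 1 in 20. Rpl10-ps3 was 4.08 in GFP-crush replicate 1, with the nearest at 0.30, and 1.77 in α9k1-crush replicate 4, with the nearest at 0.02.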

How the results depend on the processing

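Counts of members that were lower are given in 5 comparisons, namely α9k1 against GFP without crush, the same after crush, crush against naive in GFP, crush against naive in α9k1, and the interaction, and were 16, 1, 14, 2 and 0 with all covariates, where 17.6%, 0.182%, 15.7%, 5.27% and 0.847% of all genes were lower. Without covariates they were 68, 75, 3, 49 and 34 (29.5%, 28.3%, 20.1%, 27.1% and 16.1% of all genes) with medians of -0.50, -0.91, 0.026, -0.40 and -0.38, and 1 member was higher in each but the third (16.5%, 29.6%, 11%, 28.5% and 23.3% of all genes higher). With the first component alone they were 68, 71, 3, 48 and 24 (29.2%, 23.6%, 17.5%, 26.2% and 13.1% of all genes) with medians of -0.50, -0.92, 0.035 and, for the interaction, -0.43, and 1 higher in the second, the fourth and the fifth (25%, 27.8% and 19.5% of all genes higher). With the second alone they were 30, 66, 7, 58 and 42 (20.3%, 20.6%, 19.9%, 29.1% and 17.6% of all genes), with 2, 1, 0, 1 and 1 higher (12.2%, 20.6%, 11.2%, 29.7% and 24.4% of all genes) and medians of -0.63 in the second and -0.37 in the fifth. With the third alone they were 67, 69, 4, 14 and 15 (28.4%, 21.5%, 17.9%, 9.83% and 7.28% of all genes), with 1 higher in the second and the fourth (20.3% and 8.74% of all genes) and medians of -0.49, -0.94, 0.0066 and, for the interaction, -0.46. With the trend with GC and length removed and no covariates they were 60, 67, 6, 40 and 10 (23%, 26.1%, 13.1%, 27.6% and 16.5% of all genes), with 1, 2, 1, 1 and 2 higher (20.1%, 24.5%, 13.3%, 27.5% and 15.7% of all genes) and medians of -0.39 and -0.61 in the first and the second, and with covariates 12, 0, 9, 2 and 0 (14.3%, 0.198%, 9.85%, 5.65% and 1.08% of all genes). Fits of only the groups compared gave 10, 0, 2 and 1 (14%, 0%, 5.24% and 1.09% of all genes). Median-centred libraries gave 10, 1, 3, 2 and 0 (13.7%, 0.214%, 9.34%, 5.38% and 1.32% of all genes) with 1 higher in the third (14.5% of all genes), quantile normalization 5 in the third (10.9% of all genes), and the removal of the lowest 25% of genes or array weights 5 lower and 1 higher in the fourth (6.8% and 8.57% of all genes lower, 5.59% and 7.63% higher), with 1 higher interaction under array weights (2.8% of all genes). Members with few shared words had a median interaction of -0.40. Same-numbered libraries had correlations of -0.27 to 0.15 in 25 pairs, 4 over 0.1. Pairs with different numbers were not compared, so these values cannot show whether same-numbered libraries share a batch. A replicate block gave 7, 0, 9, 0 and 0 lower (10.4%, 0.0317%, 14.8%, 1.39% and 0.0554% of all genes). The cause of these changes was not tested. Leaving out 1 library with the covariates gave 9 to 19, 0 to 1, 6 to 14, 1 to 5 and 0 to 1 lower (12.5% to 18.4%, 0.0158% to 0.325%, 8.37% to 17%, 2.97% to 7.66% and 0.348% to 1.37% of all genes), and medians of -0.20 to -0.12, -0.35 to -0.17, -0.18 to -0.14, -0.33 to -0.21 and -0.16 to -0.05. Without covariates and without α9k1-naive replicate 6, lower counts were 72, 75, 4, 44 and 25 (30%, 28.6%, 20.5%, 26.3% and 15.1% of all genes), higher counts 1, 1, 3, 1 and 1 (17.5%, 29.9%, 11.6%, 27.7% and 22.4% of all genes) and medians -0.59, -0.91, 0.026, -0.33 and -0.32. Leaving out 1 library gave at most 2 higher in the first comparison, where 9.28% to 11.8% of all genes were higher. For genes called, 1005 of 1314 repeats kept the call, 309 lost it and 0 reversed. These repeats include Fermt1 and Itga9, which are not members and kept each of their calls in 26 to 33 of 33 settings. Of all genes called in the third comparison, 32.0% were higher, against 60.7% after median-centring, and 46.8% after quantile normalization, and of the interaction 61.5%, 41.4% and 48.9%. With median-centring, the all-gene median went from -0.08 to 0.06 in the former and from 0.07 to -0.06 in the latter.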
